A study of Mus musculus with 10 samples.

Results

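Oxidative phosphorylation subunits are the proteins of the respiratory chain and of ATP synthase in the inner mitochondrial membrane. The genes described here were chosen by symbol from the deposited expression table: the numbered Nduf genes of series a, b, c, s and v (complex I), Sdha to Sdhd (complex II), the Uqcr genes and Cyc1 (complex III), Cycs (cytochrome c), the Cox4 to Cox8 genes (complex IV) and the Atp5 genes (complex V). The rule found 88 of the 17274 genes in the table, with 41 in complex I, 4 in complex II, 9 in complex III, 1 for cytochrome c, 16 in complex IV and 17 in complex V. The rule goes by symbols alone, though the set was chosen with earlier results of these data known. It does not take in Ndufab1, and it places Ndufa4 and Ndufa4l2 by name with complex I although the Ndufa4 protein is now regarded as a complex IV subunit.

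The 10 samples are livers of wild-type mice with nonalcoholic steatohepatitis, in which fat storage in the liver comes with inflammation and fibrosis. All mice ate CDAHFD, a high-fat diet that lacks choline and supplies defined L-amino acids, and all received adeno-associated virus (AAV) by vein. In 5 livers the AAV encoded miR-181d-5p, and in the other 5 it was a control AAV. The series asks, by its title, about muscle-to-liver communication after limb ischemia, and these livers test the microRNA alone. No healthy diet and no uninjected mouse is among them. The promoter and dose of the vector, the age of the mice and the time of harvest are not given in the sources used here. The labels give replicate numbers but do not state that each liver is from a separate mouse, so the p-values below describe the spread between these samples, which may be technical.

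Electrons enter the chain at complex I from NADH and at complex II from succinate, pass through coenzyme Q to complex III, then through cytochrome c to complex IV, which reduces oxygen. Complexes I, III and IV pump protons, and complex V uses the gradient to make ATP. All genes described here are nuclear. The 13 subunits encoded by mitochondrial DNA have 0 entries in the table under their mt- symbols, so they were not analysed here. Hepatocytes are rich in mitochondria, and steatohepatitis is widely associated with altered mitochondrial function.

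The microRNA is shown because its seed, the part that pairs with target mRNAs, can be looked for in the individual subunit mRNAs. The mature sequence from RefSeq lies at chr8:84178759-84178781 on the minus strand of GRCm38.p6, and the capitals mark the seed, bases 2 to 8.
mmu-miR-181d-5p: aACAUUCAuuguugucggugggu
In the longest annotated 3′ UTR of each gene, 6 of the 82 tested subunit genes with an annotated UTR (7.32%) held a site, counted as a match to bases 2 to 8 or as a match to bases 2 to 7 followed by A, against 2855 of 11901 tested genes with a UTR (24%). The subunit UTRs were short, with a median of 280.5 nucleotides against 1290 for all tested genes. Per kilobase of UTR the sites numbered 0.158 in subunit genes and 0.190 in all tested genes. Cyc1, Sdha, Atp5md, Atp5g2 and Atp5l held a match to the whole seed, and Cox5b held a pair of sites of the shorter kind. An 8mer, the whole seed match followed by A, was present in 3 of them. These 3 sites are shown with 10 bases on either side, read on the strand of the mRNA, with the 8mer in capitals.
Cyc1, chr15:76346228-76346235, plus strand: aggcactgcaTGAATGTAatacaaagct
Sdha, chr13:74322343-74322350, minus strand: cttctcactgTGAATGTAactagtttct
Atp5md, chr19:47083652-47083659, minus strand: gagaacctagTGAATGTAcattttactt
The Atp5md site lies 2299 bases into a UTR of 2494 bases, whereas the gene length behind the deposited values of Atp5md was 363 bases. A match is a description of letters, not of binding, and whether any of these mRNAs is bound in the livers was not tested.

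The table gives FPKM, in which each read count is divided by the length of the gene and by the library's total. Between 18985912 and 20657019 assigned reads stood behind each miR-181d-5p liver, and between 19118235 and 20337358 behind each control liver. Of the 88 genes, 86 averaged 0.5 FPKM or more over the 10 livers and were tested in 1 fit with all other such genes, 12053 in all. Cox4i2 and Cox8b fell below that level. Of miR-181 genes the table has 0, and how much microRNA each liver held cannot be read from it. Hepatocyte markers summed to between 37080 and 42403 FPKM in the miR-181d-5p livers and between 35810 and 42551 FPKM in the control livers. Among muscle genes, Ckm, Acta1, Tnnt3, Mb and Myl1 stayed at or below 0.156 FPKM in each liver, and Ucp1, a brown fat gene, was listed at 0 in all 10. Hemoglobin genes varied widely between livers. Hbb-bs, a beta globin, measured 78.6, 191, 367, 256 and 77.0 FPKM in the miR-181d-5p livers, against 74.0, 116, 114, 307 and 554 FPKM in the control livers, with control liver 5 highest. Control livers 1, 2 and 5 stood apart in the trend of their values with gene length, which is described with the results it touches.

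Most subunit genes had slightly higher means in the miR-181d-5p livers than in the control livers, and no difference passed the test. The log2 difference, miR-181d-5p minus control on the log2(FPKM + 1) scale, was positive in 82 of the 86 tested subunit genes (95.3%), against 45.5% of all 12053 tested genes. It was positive in all 79 subunit genes that averaged 10 FPKM or more, against 60.7% of the 4815 genes at that level. The median difference was 0.09 over the subunit genes and -0.02 over all tested genes, and the subunit genes ranged from -0.22 to 0.17. Their standard errors ran from 0.058 to 0.191, with a median of 0.103, so a typical difference was smaller than its error. After rescaling to a common sum 78 differences were positive, and after quantile normalization 76 were.

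By limma with Benjamini-Hochberg adjustment over all tested genes, 0 subunit genes and 0 of 12053 genes in all had an adjusted p under 0.05, and limma voom on the recovered reads also called 0 genes. At an unadjusted p under 0.05 limma found 607 genes higher and 1161 lower. The lowest adjusted p of a subunit gene was 0.312. At an unadjusted p under 0.05, 1 subunit gene was higher, against a background of 5.04% of all tested genes, and 0 were lower, against 9.63%. In 0 subunit genes were the groups free of overlap, against 1.02% of all tested genes for higher values and 1.45% for lower values. A positive sign in nearly all members is not a set of independent observations: the members moved together from liver to liver.

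**Figure D1:**
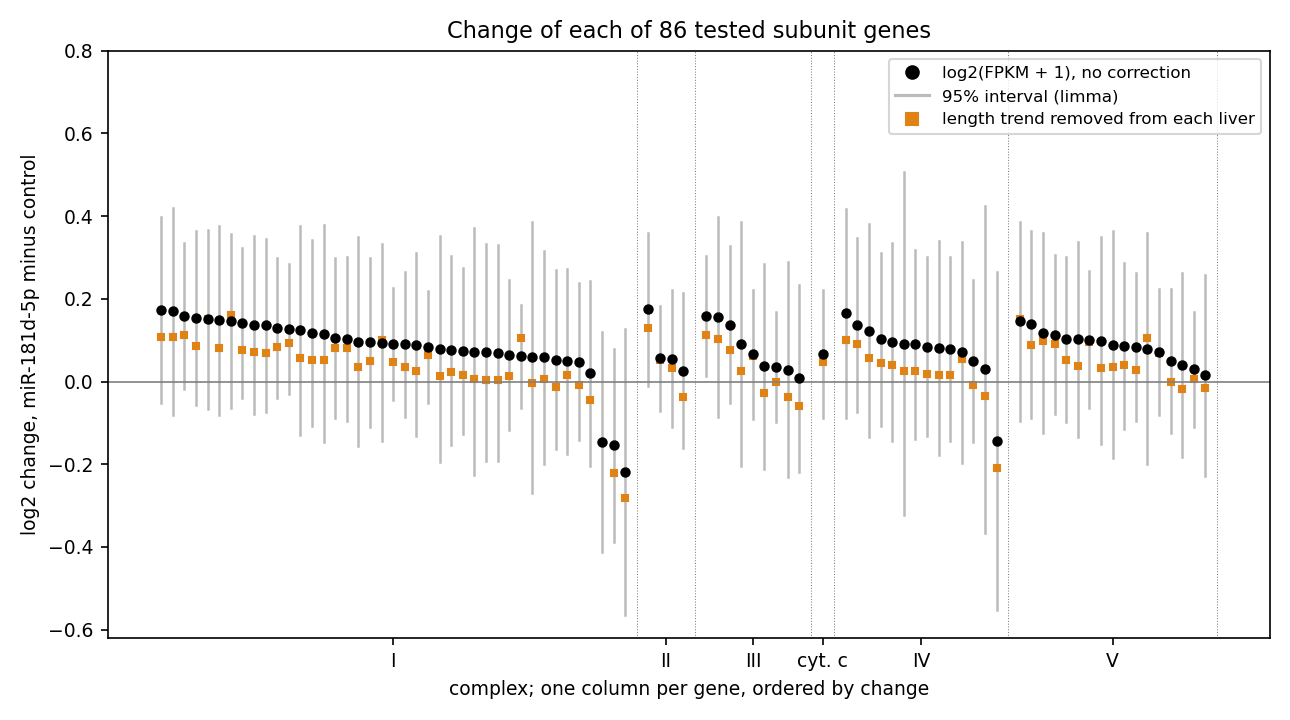
Log2 difference, miR-181d-5p minus control, for each of the 86 tested subunit genes on the log2(FPKM + 1) scale (vertical axis), grouped by complex and ordered by size (horizontal axis). Black points are the values without correction, grey bars their 95% limma intervals, and orange squares the values after a gene length trend was removed from each liver; 82 black points lie above 0, and all intervals except that of Cyc1 include 0.

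Complex I takes electrons from NADH and is the largest complex of the chain. Its 41 tested genes had a median difference of 0.09, with 38 positive. Ndufs3, a core subunit of the arm that faces the matrix, had the smallest p of the complex. It measured 101, 106, 104, 102 and 99.7 FPKM in the miR-181d-5p livers, against 78.1, 83.0, 101, 96.1 and 104 FPKM in the control livers. Its miR-181d-5p livers kept within a narrow band, and control livers 1 and 2 were the low samples. The means were 103 ± 2.43 FPKM in miR-181d-5p livers and 92.3 ± 11.2 FPKM in control livers (SD, n = 5 each), with a log2 difference of 0.16 (SE 0.0812, limma adjusted p = 0.379).

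Ndufv1 carries the NADH binding site and the flavin of complex I. It measured 105, 106, 106, 115 and 104 FPKM in the miR-181d-5p livers, against 90.8, 86.8, 103, 102 and 109 FPKM in the control livers. The groups overlapped, and miR-181d-5p liver 4 was the highest sample. The log2 difference was 0.13 (SE 0.0726, limma adjusted p = 0.422).

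Ndufa4 had the highest level among the genes named for complex I. It measured 533, 523, 538, 545 and 511 FPKM in the miR-181d-5p livers, against 393, 417, 567, 511 and 627 FPKM in the control livers. Its control livers spread from below to above the whole miR-181d-5p range, with a coefficient of variation (CV, the SD as a percentage of the mean) of 2.52% in miR-181d-5p livers and 19.7% in control livers. The log2 difference was 0.10 with a 95% interval of -0.16 to 0.35.

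Ndufs1, the largest core subunit, behaved differently between livers. It measured 52.1, 51.1, 51.8, 50.2 and 47.1 FPKM in the miR-181d-5p livers, against 50.1, 48.2, 48.8, 49.3 and 45.2 FPKM in the control livers. Control liver 5, the highest control in most subunit genes, was the lowest sample here. The CV of Ndufs1 was 4.0% in miR-181d-5p livers and 3.95% in control livers. At 2654 bases Ndufs1 is among the longest members by the lengths behind the deposited values. It was chosen for mention after its values were seen.

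Negative differences in complex I were limited to 3 genes of low level. Ndufa4l2, a hypoxia-induced relative of Ndufa4, measured 1.51, 1.43, 1.55, 1.37 and 1.05 FPKM in the miR-181d-5p livers, against 1.30, 1.27, 1.55, 2.13 and 2.08 FPKM in the control livers. Control livers 4 and 5 were its highest samples, and the log2 difference was -0.15 (SE 0.108, limma adjusted p = 0.505). Ndufb4c measured 0.634, 0.799, 0.869, 0.757 and 0.830 FPKM in the miR-181d-5p livers, against 0.640, 0.971, 1.23, 0.608 and 2.26 FPKM in the control livers, and control liver 5 alone exceeded 2 FPKM. Its log2 difference was -0.22 over all livers and -0.06 without control liver 5. Ndufb4b, with means of 1.60 ± 0.299 FPKM in miR-181d-5p livers and 1.90 ± 0.473 FPKM in control livers (SD, n = 5 each), differed by -0.15 (limma adjusted p = 0.583). Ndufb4b and Ndufb4c are copies of Ndufb4, and Ndufs6b is a copy of Ndufs6, so reads may be split between copies and these levels are uncertain.

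Complex II, succinate dehydrogenase, links the citric acid cycle to the chain. Sdhb, its iron-sulfur subunit at chr4:140961203-140979193 in the mm10 annotation, had the largest positive difference of all tested subunit genes. It measured 186, 201, 207, 203 and 179.6 FPKM in the miR-181d-5p livers, against 162, 147, 181, 177 and 202 FPKM in the control livers. Control livers 1 and 2 were the lowest samples, and control liver 5 lay among the highest. The means were 196 ± 11.9 FPKM in miR-181d-5p livers and 174 ± 20.6 FPKM in control livers (SD, n = 5 each), and the log2 difference was 0.17 (SE 0.0856, limma adjusted p = 0.365).

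Sdha, the flavoprotein that oxidizes succinate, varied little. It measured 158, 166, 163, 163 and 154 FPKM in the miR-181d-5p livers, against 159, 148, 159.5, 162 and 146 FPKM in the control livers. The groups overlapped and control liver 5 was the lowest sample, as for Ndufs1. Its log2 difference was 0.06 with a 95% interval of -0.07 to 0.18, and the 8mer printed above lies in its UTR. Sdhc and Sdhd, the membrane anchors, had log2 differences of 0.05 and 0.03, and the sign of Sdhd turned under a common sum, quantile normalization and removal of the length trend.

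Complex III passes electrons from coenzyme Q to cytochrome c, and its 9 genes had a median difference of 0.07, all positive. Cyc1, the cytochrome c1 subunit at chr15:76343523-76346260 in mm10, was the 1 subunit gene with an unadjusted p under 0.05. It measured 135, 142, 136, 154 and 137 FPKM in the miR-181d-5p livers, against 123, 114, 132, 127 and 136 FPKM in the control livers. The lowest miR-181d-5p liver lay just under the highest control liver, and the other miR-181d-5p livers lay above it. The means were 141 ± 7.75 FPKM in miR-181d-5p livers and 126 ± 8.31 FPKM in control livers (SD, n = 5 each), with a log2 difference of 0.16 (95% interval 0.01 to 0.30, limma adjusted p = 0.312). Cyc1 also holds the 8mer printed above in its UTR, and whether that site acts in the livers was not tested.

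Uqcrfs1, the Rieske iron-sulfur protein, averaged 176 ± 8.97 FPKM in miR-181d-5p livers and 161 ± 20.6 FPKM in control livers (SD, n = 5 each), with a log2 difference of 0.14 and a limma adjusted p of 0.469. Uqcrh, the hinge protein and the complex III gene with the highest level, measured 241, 250.4, 245, 248 and 241 FPKM in the miR-181d-5p livers, against 192, 199.8, 276, 242 and 303 FPKM in the control livers. The miR-181d-5p livers stayed within a CV of 1.69%, against 19.7% in the control livers, and the whole miR-181d-5p range lay inside the control range. Uqcrc2, a core protein, had the lowest mean of the complex and a log2 difference of 0.03. Cycs, the mobile carrier between complexes III and IV, averaged 27.8 ± 0.348 FPKM in miR-181d-5p livers and 26.6 ± 2.70 FPKM in control livers (SD, n = 5 each), a log2 difference of 0.07 with a 95% interval of -0.09 to 0.22.

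Complex IV reduces oxygen to water. Of its 16 genes 14 were tested, with a median difference of 0.09 and 13 positive. Cox6a1, the broadly expressed form of subunit VIa, had the largest positive difference. It measured 511, 520.4, 535, 590.2 and 508 FPKM in the miR-181d-5p livers, against 406, 385, 522, 479.8 and 614 FPKM in the control livers. Control livers 1 and 2 were the lowest of the 10 and control liver 5 the highest, and the log2 difference was 0.17 (SE 0.117, limma adjusted p = 0.509). Cox5a averaged 62.5 ± 2.38 FPKM in miR-181d-5p livers and 57.3 ± 9.10 FPKM in control livers (SD, n = 5 each), with a log2 difference of 0.14 and a limma adjusted p of 0.512. Cox4i1, the gene of the complex with the highest level, averaged 605 ± 36.1 FPKM in miR-181d-5p livers and 572 ± 104 FPKM in control livers (SD, n = 5 each), a log2 difference of 0.10 with a 95% interval of -0.14 to 0.34.

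Several complex IV subunits come in forms typical of liver or of muscle and other tissues, and the liver forms made up nearly all of the total in both groups. Cox4i1 supplied 99.95% of the Cox4i FPKM in miR-181d-5p livers and 99.95% in control livers. Cox6a1 supplied 99.8% of the Cox6a FPKM in both groups, and Cox8a 99.97% of the Cox8 FPKM in both. Cox6a2, a heart and muscle form, measured 1.09, 0.367, 1.04, 1.11 and 0.687 FPKM in the miR-181d-5p livers, against 1.41, 0.476, 0.452, 1.57 and 1.58 FPKM in the control livers. These levels overlapped widely, and the log2 difference was -0.14 (SE 0.189, limma adjusted p = 0.736). Cox4i2, a lung form, and Cox8b, a heart and muscle form, rested on 21 and 3 reads over the miR-181d-5p livers and on 22 and 4 reads over the control livers. The filter lay between them and the next members, Cox6a2 and Ndufb4c, which averaged 0.979 and 0.959 FPKM over the 10 livers.

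Within the Cox7a family, Cox7a2 made up 55.7% ± 1.94 of the FPKM in miR-181d-5p livers and 54.4% ± 2.42 in control livers (SD, n = 5 each). Cox7a2l, which encodes a factor that helps join complexes III and IV into supercomplexes, made up 43.7% ± 1.87 in miR-181d-5p livers and 44.9% ± 2.35 in control livers. The muscle form Cox7a1 made up 0.672% in miR-181d-5p livers and 0.660% in control livers. These shares differed by less than the spread between livers. Cox6b1 likewise supplied 99.5% of the Cox6b FPKM in miR-181d-5p livers and 99.6% in control livers, beside Cox6b2, a testis form with log2 difference 0.09 (SE 0.191).

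**Figure D2:**
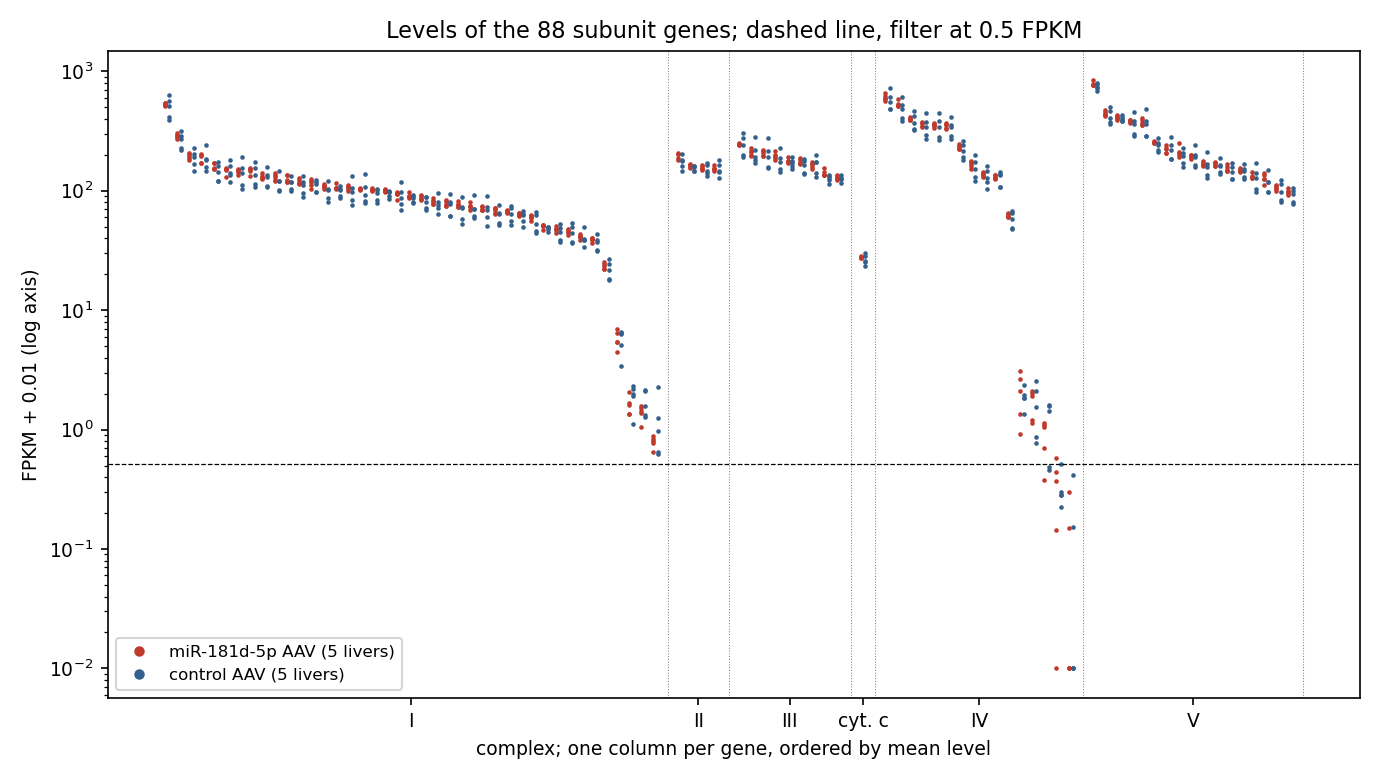
FPKM of each of the 88 subunit genes in each liver (vertical axis, log scale, with 0.01 added so that livers listed at 0 can be drawn), one column per gene, grouped by complex and ordered by mean level. Red points are the 5 miR-181d-5p livers, blue points the 5 control livers, and the dashed line the filter. In both colours 79 genes lie above 10 FPKM, and the low members are tissue forms, copies and Ndufa4l2.

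Complex V makes ATP, and all 17 of its genes had positive differences, with a median of 0.09. Atp5b, the catalytic beta subunit and the subunit gene with the highest level, measured 761, 780.0, 764, 842 and 762 FPKM in the miR-181d-5p livers, against 726, 681, 777, 744 and 796 FPKM in the control livers. The highest sample was miR-181d-5p liver 4, and the groups overlapped. The means were 782 ± 34.7 FPKM in miR-181d-5p livers and 745 ± 45.0 FPKM in control livers (SD, n = 5 each), a log2 difference of 0.07 with a 95% interval of -0.08 to 0.22. The smallest p-values of the complex belonged to Atp5o, a stalk subunit, and Atp5pb, the b subunit of the stator. Atp5o had a log2 difference of 0.14 (SE 0.105, limma adjusted p = 0.539). Atp5pb averaged 256 ± 3.97 FPKM in miR-181d-5p livers and 239.6 ± 26.0 FPKM in control livers (SD, n = 5 each), a log2 difference of 0.10 (SE 0.0765, limma adjusted p = 0.542).

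The membrane ring of ATP synthase is built of subunit c, for which Atp5g1, Atp5g2 and Atp5g3 encode the same mature protein. Atp5g3 gave 60.2% ± 1.26 of their summed FPKM in miR-181d-5p livers and 60.6% ± 1.22 in control livers (SD, n = 5 each). Atp5g2 gave 22.6% ± 0.660 in miR-181d-5p livers and 22.8% ± 0.785 in control livers. Atp5g1 gave 17.2% ± 0.960 in miR-181d-5p livers and 16.6% ± 0.817 in control livers. The proportions differed by less than the spread between livers, and the log2 differences of the 3 genes were 0.15, 0.08 and 0.09 for Atp5g1, Atp5g2 and Atp5g3.

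The subunit genes moved together between livers more than between groups. The median deviation of the 86 genes from their mean over the 10 livers was 0.02, 0.06, 0.06, 0.09 and -0.00 on the log2 scale in miR-181d-5p livers 1 to 5, against -0.26, -0.26, 0.07, -0.02 and 0.24 in control livers 1 to 5. The miR-181d-5p livers lay close together, and control livers 1, 2 and 5 lay beyond them on both sides. The subunit genes took 1.33, 1.38, 1.36, 1.43 and 1.32% of all assigned reads in the miR-181d-5p livers, against 1.14, 1.14, 1.38, 1.29 and 1.51% in the control livers. The group means of these shares were 1.36% ± 0.0444 in miR-181d-5p livers and 1.29% ± 0.160 in control livers (SD, n = 5 each), so the groups overlapped.

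Complex by complex the order of livers was similar. The summed FPKM of complex I genes was 4106, 4274, 4292, 4363 and 4052 in the miR-181d-5p livers, against 3323, 3383, 4268, 4019 and 4855 in the control livers. For complex II it was 656, 675, 671, 695 and 635 in the miR-181d-5p livers, against 584, 577, 668, 629 and 699.9 in the control livers. For complex V it was 4231, 4472, 4401, 4552 and 4235 in the miR-181d-5p livers, against 3654, 3645, 4444, 4150.2 and 4961 in the control livers. In each sum control livers 1 and 2 were lowest and control liver 5 highest, and the miR-181d-5p livers lay between them.

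Gene by gene, control liver 5 was the highest control in 79 of the 86 genes and the highest of all 10 livers in 67, against 19.0% and 12.9% of all tested genes. Control liver 1 or 2 was the lowest control in 82 genes and the lowest of all 10 in 80, against 37.9% and 24.6% of all tested genes. The whole range of the miR-181d-5p livers lay inside that of the control livers in 67 of the 86 genes (77.9%), against 37.7% of all tested genes. The SD was larger in the control livers for 84 of the 86 genes (97.7%), against 77.1% of all tested genes. The median CV of the subunit genes was 4.67% in miR-181d-5p livers and 16.6% in control livers, beside 9.40% in miR-181d-5p livers and 14.7% in control livers over all tested genes. Without control liver 5 the median CV of the subunit genes in controls was 12.7%.

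**Figure D3:**
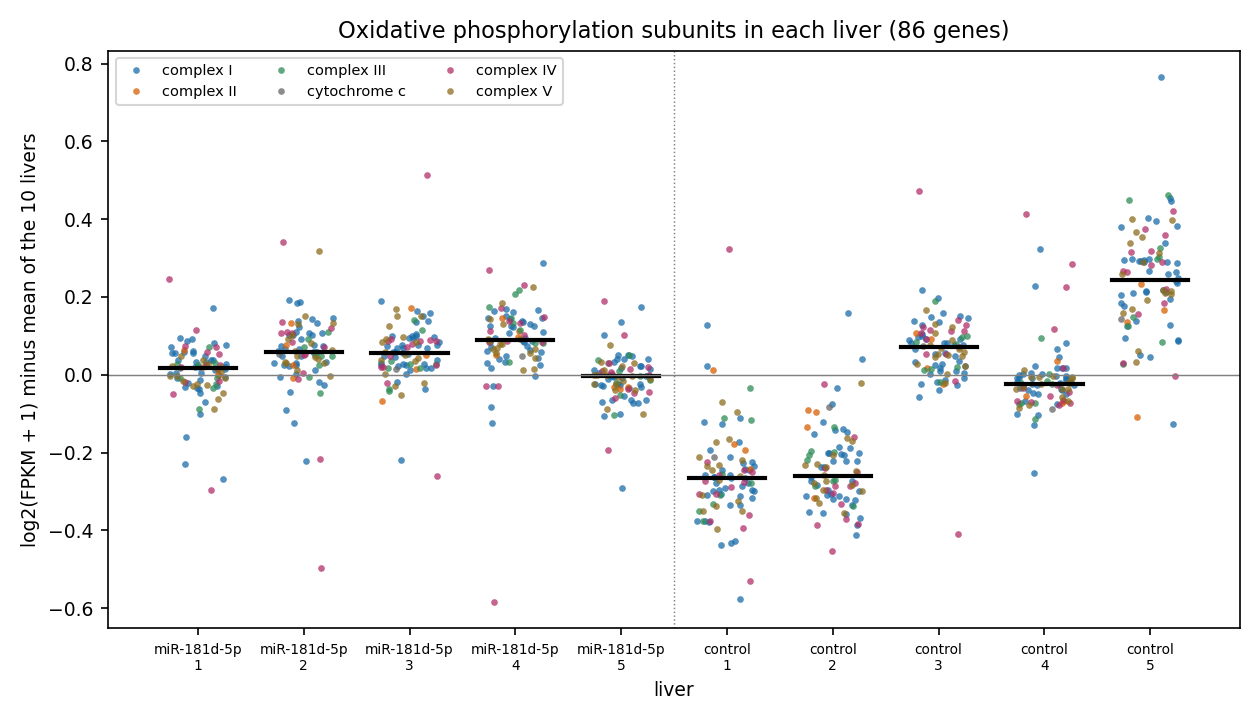
Deviation of each of the 86 tested subunit genes from its mean over the 10 livers, as log2(FPKM + 1) (vertical axis), in each liver (horizontal axis), with the 5 miR-181d-5p livers left of the 5 control livers. Points are genes coloured by complex and black bars are medians; the medians of control livers 1 and 2 lie at -0.26 and that of control liver 5 at 0.24, while the miR-181d-5p medians stay between -0.00 and 0.09.

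The livers that stood apart in the subunit genes also stood apart in how values depended on gene length. For each liver, the deviation of every tested gene from its 10-liver mean was regressed on its log2 annotated exon length. The slopes, in log2 units per doubling of length, were -0.017, -0.027, -0.026, -0.032 and 0.009 in miR-181d-5p livers 1 to 5, against 0.118, 0.114, -0.038, -0.005 and -0.097 in control livers 1 to 5. Long genes were thus relatively high in control livers 1 and 2 and relatively low in control liver 5. The group difference in slope was -0.037, with a two-sided exact permutation p of 0.373 over all labellings of the 10 livers, where the smallest possible p is 0.00794.

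Subunit genes are short. Their median annotated exon length was 1569 bases against 4326 for all tested genes, and the lengths that the deposited values rest on had medians of 762.5 and 3326 bases. Of the 85 tested subunit genes with an annotated length, 62 fell in the shortest of 5 equal classes of all tested genes. Over all tested genes the median log2 difference between the groups was 0.04, 0.02, -0.01, -0.04 and -0.09 from the shortest class to the longest. In the same order of classes the subunit genes numbered 62, 13, 7, 2 and 1, with median differences of 0.09, 0.07, 0.09, 0.11 and 0.06. In the shortest class 61.3% of all tested genes had a positive difference, as did 59 of the 62 subunit genes.

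Length also ordered the subunit genes among themselves within the livers that stood apart. In control liver 5 the median deviation was 0.30 in the 29 shortest members (320 to 560 bases by the lengths behind the deposited values), 0.22 in the middle 29 (569 to 1149 bases) and 0.16 in the 28 longest (1152 to 3154 bases). In control liver 1 the same groups had medians of -0.29, -0.29 and -0.21, and in control liver 2 of -0.29, -0.28 and -0.21. Across the 85 members Spearman's rho between the lengths behind the deposited values and the deviation was -0.60 in control liver 5 and 0.41 in control liver 1. With annotated exon lengths it was weaker, at -0.44 in control liver 5 and 0.27 in control liver 1. These are given as a description because genes of 1 library share its depth and preparation. The group difference itself had a rho of 0.12 with the lengths behind the deposited values and 0.09 with annotated lengths.

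**Figure D4:**
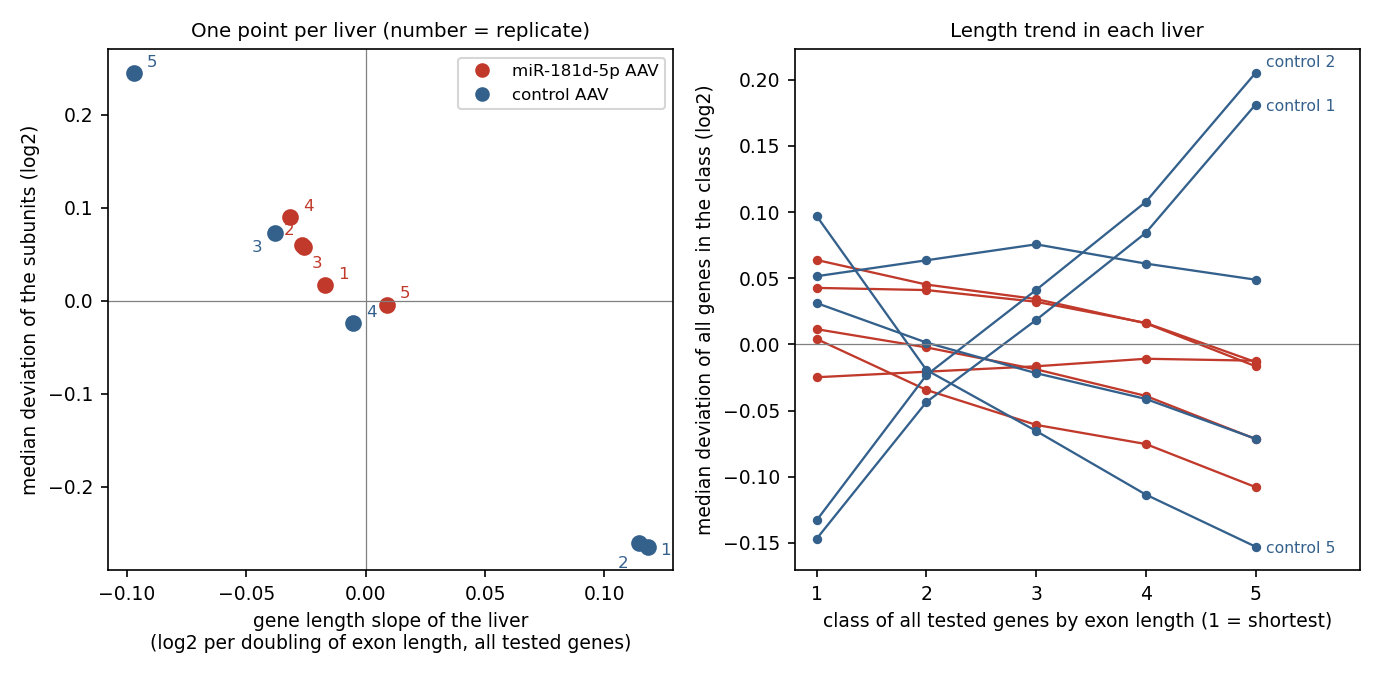
Left, the median deviation of the 86 subunit genes (log2, vertical axis) against the gene length slope of all tested genes (log2 per doubling of exon length, horizontal axis), one point per liver with its replicate number, red for miR-181d-5p and blue for control. Right, the median deviation of all tested genes (log2, vertical axis) in 5 classes by exon length (horizontal axis), one line per liver; control livers 1 and 2 climb with length, control liver 5 drops, and in the shortest and the longest class the miR-181d-5p livers lie between them.

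When the length trend was removed from each liver, the subunit genes drew together. Their median deviations became -0.00, 0.03, 0.03, 0.05 and 0.01 in miR-181d-5p livers 1 to 5, against -0.10, -0.09, 0.02, -0.02 and 0.09 in control livers 1 to 5. Control livers 1 and 2 still lay lowest and control liver 5 highest, at a smaller distance. The median SD of the subunit genes, on the log2 scale, became 0.057 in miR-181d-5p livers and 0.098 in control livers, where it had been 0.066 in miR-181d-5p livers and 0.232 in control livers.

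The differences between the groups shrank with the same correction. With annotated lengths 68 of 85 subunit genes were positive, against 5526 of 11991 genes in that fit, and the median difference was 0.04. With the lengths behind the deposited values 57 of 86 were positive, against 5536 of 12053 genes, and the median was 0.02. Across 85 members, rho between the difference and annotated length was 0.09 before correction and 0.49 after correction with annotated lengths. With the lengths behind the deposited values, rho was 0.12 before and 0.34 after the same correction. Differences corrected with annotated lengths thus rose with length among the members. After correction with annotated lengths, 2 subunit genes were higher at an unadjusted p under 0.05 (background 5.15%), Cyc1 at 0.11 and Sdhb at 0.13. A further 2 were lower (background 10.4%), Ndufa4l2 at -0.22 and Ndufb4c at -0.28. By limma 0 subunit genes had an adjusted p under 0.05 here, against 0.00834% of all genes in that fit, and the lowest was 0.240. How much of the difference between the groups follows gene length in control livers 1, 2 and 5 and how much follows the vector cannot be told apart gene by gene, because these livers are all controls.

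The size of the difference depended on control livers 1, 2 and 5. Without control liver 5 the median difference was 0.17, and 82 of 86 genes were positive, against 4988 of 12053 tested genes. Control liver 5 was the highest control in 79 of the 86 genes, so leaving it out raises their differences. Counts without it are a description, not a test. At an unadjusted p under 0.05, 0 subunit genes were lower, against a background of 14.9%, and 29 were higher, against 6.58%. These were 16 genes of complex I, 1 of complex II, 4 of complex III, 3 of complex IV and 5 of complex V. By limma 0 of them had an adjusted p under 0.05, against 0.0083% of all tested genes, and the lowest, that of Sdhb, was 0.165. With the length trend removed as well, 11 genes were higher (background 5.35%), 2 were lower (background 13.6%), 0 had an adjusted p under 0.05 (0.00834% of all genes), and the median difference was 0.07. Without control liver 1 the median was 0.03 with 61 positive, and without control liver 2 it was 0.04 with 70 positive, with 0 genes higher at an unadjusted p under 0.05 in either case. The background for higher genes was 5.49% without control liver 1 and 3.5% without control liver 2. Lower at that p were 0 subunit genes without control liver 1 (background 10.5%) and 1 without control liver 2, Ndufb4b (background 7.08%). The hemoglobin genes were also highest in control liver 5, and their part in these differences was not tested.

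Assembly factors put the subunits together and insert their cofactors, and they were examined as a second group of genes of the pathway. Of 50 tested assembly factors 46 had positive differences, against 45.5% of all tested genes, with a median of 0.13. At an unadjusted p under 0.05, 11 were higher (background 5.04%) and 0 lower (background 9.63%). The groups were free of overlap with higher values in 3 of the 50, against 1.02% of all tested genes. With the length trend removed 43 were positive and 12 higher (background 5.15%), and without control liver 5 16 were higher (background 6.58%). The assembly factors were not counted without control liver 1 or without control liver 2, so how far they depend on those livers is not known. The lowest adjusted p by limma was 0.232, so none passed.

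For complex I 14 of 15 assembly factors were positive and 6 were higher at an unadjusted p under 0.05 (background 5.04%). Ecsit, which takes part in complex I assembly, measured 19.4, 21.7, 18.8, 19.4 and 19.8 FPKM in the miR-181d-5p livers, against 17.5, 16.3, 17.9, 16.0 and 16.4 FPKM in the control livers. The groups did not overlap, and the log2 difference was 0.22 (SE 0.0636, limma adjusted p = 0.235). Timmdc1, a membrane assembly factor, measured 13.3, 13.6, 14.6, 14.2 and 12.6 FPKM in the miR-181d-5p livers, against 11.3, 9.63, 10.6, 12.6 and 11.5 FPKM in the control livers. The lowest miR-181d-5p liver and control liver 4 were nearly equal, and the log2 difference was 0.28 (limma adjusted p = 0.232).

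For complexes II to V 32 of 35 assembly factors were positive and 5 were higher at an unadjusted p under 0.05 (background 5.04%). Atpaf1, a chaperone of the ATP synthase beta subunit, measured 5.77, 5.43, 4.90, 5.26 and 4.92 FPKM in the miR-181d-5p livers, against 4.62, 4.89, 4.47, 4.16 and 4.20 FPKM in the control livers. Its groups did not overlap, and the log2 difference was 0.19 (SE 0.0723, limma adjusted p = 0.274). Lyrm7, which chaperones the Rieske protein, averaged 0.695 ± 0.0705 FPKM in miR-181d-5p livers and 0.504 ± 0.0736 FPKM in control livers (SD, n = 5 each), with a log2 difference of 0.17 and a limma adjusted p of 0.265.

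Regulators of mitochondrial biogenesis did not share a direction. Of 19 tested, 12 had positive differences with a median of 0.07, 2 were higher (background 5.04%) and 2 lower (background 9.63%) at an unadjusted p under 0.05. Ppargc1a, a coactivator known to raise transcription of nuclear mitochondrial genes, measured 0.316, 0.475, 0.374, 0.432 and 0.516 FPKM in the miR-181d-5p livers, against 0.754, 0.832, 0.644, 0.649 and 0.551 FPKM in the control livers. All miR-181d-5p values were lower than all control values, as in 1.45% of all tested genes, and the log2 difference was -0.24. The mean of Ppargc1a was 0.423 FPKM in miR-181d-5p livers and 0.686 FPKM in control livers. It thus passed the filter of 0.5 FPKM only through the control livers. Ppargc1a is 1 of the 2 regulators counted as lower, and its values are given as a description, not as a test. Gabpb1, a subunit of the GABP (NRF2) transcription factor, measured 2.60, 2.37, 2.64, 2.40 and 2.02 FPKM in the miR-181d-5p livers, against 1.95, 1.98, 1.70, 2.27 and 1.94 FPKM in the control livers. Its groups overlapped at the lowest miR-181d-5p liver, with a log2 difference of 0.20 (limma adjusted p = 0.298).

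In the citric acid cycle, which supplies NADH and succinate, 11 of 14 enzymes were positive with a median of 0.09, and 0 were higher (background 5.04%) or lower (background 9.63%) at an unadjusted p under 0.05. Idh3b, a subunit of the NAD-dependent isocitrate dehydrogenase, and Suclg1, a subunit of succinyl-CoA ligase, both differed by 0.13 on the log2 scale, with limma adjusted p = 0.365 for Idh3b and 0.430 for Suclg1. In coenzyme Q synthesis 9 of 13 genes were positive with a median of 0.10, and at an unadjusted p under 0.05 3 were higher (background 5.04%) and 0 lower (background 9.63%). Coq9, a lipid-binding protein of that pathway, averaged 71.0 ± 3.80 FPKM in miR-181d-5p livers and 63.4 ± 4.29 FPKM in control livers (SD, n = 5 each), with a limma adjusted p of 0.310. Coq8a, an atypical kinase of the pathway, averaged 26.7 ± 8.07 FPKM in miR-181d-5p livers and 18.6 ± 3.94 FPKM in control livers (SD, n = 5 each), with a limma adjusted p of 0.316.

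Promoters were read because subunit genes are known to share sites for NRF1, GABP and YY1. RefSeq promoters on GRCm38.p6, from 250 bases before to 50 after the start, were matched for 70 of the 88 genes. The NRF1 motif (GCGC, then A, any base and GCGC), searched on both strands, was present for 17 of them (24.3%), against 11.2% of the tested genes with a promoter and 4.6% of all promoters. The motif CCGGAAG (GABP, an ETS factor) was present for 17 (24.3%), against 19.9% of tested genes and 8.86% of promoters. The motif AAGATGGCG (YY1) was present for 7 (10%), against 3.53% of tested genes and 1.4% of promoters. In the shares of genes, a gene counts if any of its promoters holds the motif. The shares of all promoters count each of 32851 promoters, those of untested genes included. They are therefore not like for like with the shares of genes. A match describes letters and no site, and a window without a match says nothing of the factor.

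The promoters of 3 members are shown, picked among those with large positive differences because they hold a motif, with each NRF1 or GABP motif in capitals on either strand.
Cox6a1, chr5:115348909-115349208, minus strand: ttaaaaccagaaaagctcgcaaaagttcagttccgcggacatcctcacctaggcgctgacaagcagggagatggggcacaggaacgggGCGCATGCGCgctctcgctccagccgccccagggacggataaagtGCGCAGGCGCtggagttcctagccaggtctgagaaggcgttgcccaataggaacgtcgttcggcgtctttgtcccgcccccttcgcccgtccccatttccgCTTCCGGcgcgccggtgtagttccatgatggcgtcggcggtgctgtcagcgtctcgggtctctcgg
Ndufs3, chr2:90904672-90904971, minus strand: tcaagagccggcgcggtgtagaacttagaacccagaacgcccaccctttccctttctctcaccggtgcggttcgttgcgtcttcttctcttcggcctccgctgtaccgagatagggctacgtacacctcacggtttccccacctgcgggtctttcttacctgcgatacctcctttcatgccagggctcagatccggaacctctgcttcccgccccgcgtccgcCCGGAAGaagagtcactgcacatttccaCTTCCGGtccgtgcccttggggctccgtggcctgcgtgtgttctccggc
Sdhb, chr4:140961021-140961320, plus strand: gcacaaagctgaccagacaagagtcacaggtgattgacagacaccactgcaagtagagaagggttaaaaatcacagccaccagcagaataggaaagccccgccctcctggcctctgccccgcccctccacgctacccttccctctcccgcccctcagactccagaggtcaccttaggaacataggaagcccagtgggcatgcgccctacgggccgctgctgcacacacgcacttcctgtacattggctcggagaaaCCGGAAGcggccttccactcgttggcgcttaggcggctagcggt
The Cox6a1 window holds both kinds of motif, and the Ndufs3 and Sdhb windows hold the GABP motif alone. Other members with differences as large hold none of the 3 motifs in this window, among them Ndufb10 at 0.17 and Ndufa13 at 0.17, so the windows shown do not stand for all such members. Gabpb1, described above, encodes the partner of the DNA-binding GABPA, whose gene Gabpa averaged 8.58 ± 0.654 FPKM in miR-181d-5p livers and 8.85 ± 1.29 FPKM in control livers (SD, n = 5 each).

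Markers of stellate cells, cholangiocytes and macrophages were mostly lower in the miR-181d-5p livers, endothelial and lymphocyte markers were more mixed. None of the markers in these lists passed the adjusted threshold (lowest limma adjusted p 0.221). All 10 stellate cell and fibroblast markers had negative differences with a median of -0.37, 8 of them lower at an unadjusted p under 0.05 (background 9.63%). Their summed FPKM ran from 362 to 489 in miR-181d-5p livers and from 505 to 685 in control livers. Their mean log2 deviations per liver overlapped, from -0.44 to -0.05 in miR-181d-5p livers and from -0.07 to 0.37 in control livers. All 6 tested cholangiocyte markers were negative with a median of -0.62, 5 of them lower at that p (background 9.63%). Their sums, 112 to 368 FPKM in miR-181d-5p livers and 269 to 505 in control livers, overlapped. Of 10 macrophage markers 8 were negative with a median of -0.26, and 3 were lower (background 9.63%) and 1 higher (background 5.04%) at that p. Their sums, 1667 to 2889 FPKM in miR-181d-5p livers and 2314 to 3172 in control livers, overlapped. Hepatocyte markers were positive in 9 of 12, 1 of them higher (background 5.04%) and 0 lower (background 9.63%) at that p. Their median was 0.07, and 0.03 with the length trend removed. Their mean log2 deviations were -0.11, 0.07, 0.01, 0.15 and 0.02 in miR-181d-5p livers 1 to 5. In control livers 1 to 5 they were 0.07, -0.13, 0.06, -0.11 and -0.03, where the subunit medians were -0.26, -0.26, 0.07, -0.02 and 0.24. Endothelial markers were positive in 3 and negative in 5, with a median of -0.07. At that p 2 were lower (background 9.63%) and 0 higher (background 5.04%). Their sums were 131 to 139 FPKM in miR-181d-5p livers and 131 to 152 in control livers. Of 7 tested lymphocyte markers 2 were positive and 5 negative, with a median of -0.14. At that p 1 was lower (background 9.63%) and 0 higher (background 5.04%). Their sums were 11.1 to 15.9 FPKM in miR-181d-5p livers and 10.7 to 20.9 in control livers. No marker of these lists was at 0 in all livers. The part of the cell makeup in the subunit differences was not tested, and in whole liver fewer cells of a type and less RNA per cell cannot be told apart.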

How the data were processed

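RNA of 10 mouse livers went into TruSeq Stranded mRNA libraries, per the labels' protocols. The authors deposited 1 table of FPKM with 17274 genes by symbol and 1 column per liver. The submitters' processing notes name the mm10 build and list, with no roles, DESeq2 1.18.1, R 3.4.1, HTSeq 0.13.5, HISAT2 2.2.1, Trimmomatic 0.38 and FastQC 0.11.9. Neither the FPKM formula nor the use of strand in counting is given in the sources used here. Overlapping antisense genes and near-identical copies may share reads.

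Values divided into whole reads, within 0.02, for 17273 of the 17274 genes (99.994%), which gave the gene lengths behind the FPKM and totals of 18985912 to 20657019 reads a library. Exon lengths came from GENCODE vM21 for 98.0% of genes. A liver whose reads favour short genes shows short genes high in FPKM.

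The main test was two-sided limma 3.58.1 with trended eBayes (R 4.3.3) on log2(FPKM + 1), over the 12053 genes averaging 0.5 FPKM or more, with Benjamini-Hochberg adjustment over all of them and a threshold of 0.05. Differences on this scale understate changes of low genes. The scripts were tested on simulated data. The length trend was removed per liver by lowess (span 0.3), and length slopes were compared by an exact permutation test. Genes were named by rule: per complex the smallest p in each direction and the highest and lowest levels, all Sdh genes, Cyc1, Cycs, tissue forms, the members nearest the filter, and 2 genes of each pathway list. Alternatives were other pseudocounts, filters and scalings, array weights, voom on the recovered reads, a replicate block and leaving out each liver. Trend removal with the lengths behind the FPKM, and trend removal with livers left out, were chosen after seeing the data. Replicates differed by more than counting noise (chi-square per degree of freedom at least 9.51). The members and lists were chosen with earlier results of these data known. Other steps used Python 3.11.15, numpy 2.4.6, pandas 2.3.3, scipy 1.17.1 and matplotlib 3.10.9.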

Additional observations from a re-analysis of the deposited data

Results flagged for a closer look

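Dixon's test for a gap at the end of a group was run on 86 groups of 5 livers, namely the named subunit genes and the summary measures per liver. It marked 3 of them, and chance alone marks about 1 in 20. Atp5b in miR-181d-5p liver 4 measured 842 FPKM, above the 4 other miR-181d-5p livers at 761, 780, 764 and 762 FPKM. Ndufv1 in the same liver measured 115 FPKM, above the other miR-181d-5p livers at 105, 106, 106 and 104 FPKM. Cox4i2 in control liver 5 was listed at 0.502 FPKM, above the other control livers at 0.213, 0.288, 0.273 and 0.271 FPKM, and rests on 22 reads over all control livers.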

How the results depend on the processing

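Across the alternatives, 0 of the 32 tested members named by rule passed the adjusted threshold, and the lowest adjusted p of any subunit gene was 0.165. Of 987 values of named members under the alternatives 910 kept the sign and 77 turned it, 57 of them with a liver left out. The number of subunit genes higher at an unadjusted p under 0.05, 1 in the main test, was 3 with a common sum, 2 with quantile normalization, 2 with array weights, 2 with the length trend removed and 2 with the lengths behind the FPKM. The number lower, 0 in the main test, was 2 with either length correction. Genes in all at that p, in both directions, numbered 1768 of 12053 in the main test. They numbered 1613 with a common sum, 1939 with quantile normalization and 1942 with array weights. With the length trend removed there were 1862, and with the lengths behind the FPKM 1852. With a filter at 5 FPKM 1026 genes in all had an unadjusted p under 0.05. With the length trend removed 1 gene in all, Jdp2, passed the adjusted threshold.

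Same-numbered livers did not deviate together: their correlations ran from -0.283 to 0.015, and 0 livers matched their own number best. With the replicate block 1 gene in all, Ccn2, passed the adjusted threshold, 0 subunit genes were higher at an unadjusted p under 0.05, and the slope had p = 0.375 by exact sign permutation. With the block and the length correction these were 1 gene (Ccn2), 0 subunit genes higher and 2 lower. At an unadjusted p under 0.05 stood 1220 genes in all with the block and 1328 with the block and the length correction. Jdp2 and Ccn2 are named after their values were seen.

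Signs turned for Sdhd at -0.0016 with a common sum and -0.020 with quantile normalization, and for Cox6b2 at -0.024 with array weights. With the length trend removed, with or without the replicate block, Cox7a1 had -0.035, Cox7a2l -0.0093, Sdhd -0.038, Uqcrc2 -0.0017 and Uqcrh -0.027. With the lengths behind the FPKM Cox6b1 had -0.0025, Cox7a1 -0.054, Cox7a2l -0.018, Sdhc -0.0093, Sdhd -0.038, Uqcrc2 -0.0077 and Uqcrh -0.045.

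Leaving out 1 liver at a time, with and without the length correction, gave 0 to 11 genes called in all, 1071 to 2587 genes at an unadjusted p under 0.05, 0 to 29 subunit genes higher, 0 to 2 lower, 56 to 82 positive and a median difference of 0.019 to 0.168. The count of 29 came without control liver 5 (background 6.58%), the highest control in 79 of the 86 genes. That of 11 called genes came without miR-181d-5p liver 5 and with the length correction, and 0 of those 11 are subunit genes. Members whose sign turned with a liver left out ranged as follows: Cox6b1 from -0.014 to 0.181, Cox6b2 from -0.049 to 0.221, Cox7a1 from -0.153 to 0.180, Cox7a2l from -0.029 to 0.095, Cox7b from -0.022 to 0.156, Ndufa4 from -0.0082 to 0.181, Sdhd from -0.059 to 0.088, Uqcrc2 from -0.015 to 0.060 and Uqcrh from -0.063 to 0.122. The cause of these changes was not tested. Without the length correction the slope difference ranged from -0.066 to -0.012 with exact permutation p from 0.190 to 0.746.

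With 5 livers a group and a median CV of 4.67% in miR-181d-5p livers and 16.6% in control livers, the 95% interval of 85 of the 86 tested members included 0. Low tested members rest on few reads, down to 37 in a group for Ndufb4c.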
